A study of Mus musculus with 12 samples.

Results

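The miRs described here are 4 products of a pair of epithelial miR clusters, given by name as *mmu-miR-192-5p*, *mmu-miR-192-3p*, *mmu-miR-194-5p* and *mmu-miR-215-5p*, of the 1927 mature miRs listed for E18.5 mouse fetal liver. They were chosen by name and not by a measured value, although earlier results of these data were known. All 4 were among the 388 miRs that passed the filter on low counts, of the 682 with any count. The 3 other mature miRs of the same hairpins, *miR-194-1-3p*, *miR-194-2-3p* and *miR-215-3p*, were followed beside them, and *miR-194-2-3p* alone of these passed the filter. miR-seq, in which reads of the length of a mature miR are counted, was done on whole livers of female littermate fetuses, 5 of them WT and 7 *Mir483*Pat-KO, with 1 library each. *Mir483*Pat-KO fetuses inherited from their father an allele lacking *Mir483*, the miR gene inside *Igf2*. The allele was made by Cre in targeted ES cells of the C57BL/6N line JM8.F6, so the loss was constitutive and was shared by every cell type of the liver, and the paternal copy is the one that is normally active. The colony was kept by crosses to C57BL/6J mice, and neither group was treated.

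*miR-192*, *miR-194* and *miR-215* are characteristic miRs of epithelial cells in the liver, gut and kidney. Transcription of their clusters can be activated by p53. A mature miR recognises its targets mainly through its seed, the bases next to its 5′ end, and the 5p and 3p arms of a hairpin are cut from the same precursor, after which usually a single arm persists. The fetal liver is also a blood-forming organ, so hepatocytes share the tissue with many erythroid cells.

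The sequences show which reads can be traced to which cluster and which miRs share a seed. They are RefSeq's for GRCm38.p6, read 5′ to 3′, with the seed (bases 2 to 8) in capitals.
miR-192-5p: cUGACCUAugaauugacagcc  
miR-215-5p: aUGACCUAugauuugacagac  
miR-194-5p: uGUAACAGcaacuccaugugga  
miR-192-3p: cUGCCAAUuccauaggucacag  
miR-194-2-3p: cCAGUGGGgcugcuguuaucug  
miR-194-1-3p: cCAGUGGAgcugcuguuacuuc  

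*miR-192-5p* and *miR-215-5p* carry the same seed, UGACCUA, and differ at 3 of 21 bases, C1A, A12U and C20A, with *miR-192-5p* first and positions counted from its 5′ end. No other miR of the table with a RefSeq sequence had this seed, and none but *miR-194-5p* had the seed GUAACAG. Of the 1927 listed miRs, 1637 were matched to RefSeq by name. The 5p arm of *Mir194-1* and that of *Mir194-2* are the same 22 bases, so reads of *miR-194-5p* name no locus. Their 3p arms differ at 4 of 22 bases, A8G, C19U, U20C and C22G from *miR-194-1-3p* to *miR-194-2-3p*, so 3p reads do. The change A8G lies in the seed.

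*Mir194-2* lies at chr19:6264643-6264728 and *Mir192* at chr19:6264844-6264932 of GRCm38, both on the plus strand and 115 bases apart. No annotated gene other than the miR genes overlaps them, and the nearest protein-coding genes are *Atg2a*, 2308 bases from *Mir194-2*, and *Ehd1*, 11793 bases from *Mir192*. *Mir194-1* lies at chr1:185313319-185313385 and *Mir215* at chr1:185313581-185313692, on the plus strand and 195 bases apart. Both are in an intron of *Iars2*, a tRNA synthetase gene on the minus strand. On their own strand, *Mir194-1* is in an intron and *Mir215* in exon 2 of the antisense RNA gene *2010103J01Rik*.

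Each library held 658665 to 1211160 counted reads, with medians of 929129 (WT) and 742582 (*Mir483*Pat-KO). A level of 3 counts corresponds to 2.57 to 4.67 CPM (CPM being the count scaled to a fixed library total, here with TMM factors). Such floors and intervals cover counting error only, since PCR copies are not independent molecules. The deleted gene matched the labels, with 733 to 1281 reads of *miR-483-3p* in the WT libraries and 0 to 19 in the *Mir483*Pat-KO libraries. WT libraries carry the indices 37 to 41 and *Mir483*Pat-KO libraries 42 to 48, so index order and genotype cannot be told apart. By animal number the fetuses form 2 ranges, the lower holding 4 of each genotype and the upper 1 WT and 3 *Mir483*Pat-KO fetuses. The labels do not say what the numbers stand for. In bulk tissue, fewer cells of a type and less RNA per cell cannot be told apart.

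The liver identity of the samples was checked by marker miRs. The 3 hepatocyte miRs, led by *miR-122-5p*, summed to 131148 to 165948 CPM in the WT livers and 122889 to 173899 CPM in the *Mir483*Pat-KO livers. The 4 erythroid miRs (*miR-144-3p*, *miR-144-5p*, *miR-451a* and *miR-486a-5p*) summed to 23848 to 31974 CPM (median 26510) in the WT livers and 25913 to 37810 CPM (median 32355) in the *Mir483*Pat-KO livers. Fitted levels of all 4 were higher in *Mir483*Pat-KO, with a median log2 fold change of 0.19. edgeR called 0 of the 4, against 8 of all 388 tested (2.06%). In the order named, their unadjusted edgeR p was 0.0232, 0.380, 0.152 and 0.0168, where 68 of all 388 were under 0.05. The genotype sums overlapped for both lists.

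Of the 4 miRs, *miR-192-5p* was by far the most abundant and stood 5th of the 682 detected miRs by summed count, after *miR-127-3p*, *miR-122-5p*, *miR-22-3p* and *miR-30a-5p*. It took 4.21% of all counts, and 3.59% to 5.25% in single libraries. Its TMM CPM in WT was 38082, 40379, 40479, 36771 and 49285 in replicates 1 to 5. The *Mir483*Pat-KO livers ran from 36157 to 46624 CPM around a median of 44758. WT replicate 5 was the highest of all 12 livers, and the genotypes overlapped over most of their range.

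*miR-194-5p*, which has a seed of its own, stood 47th with 0.222% of all counts. It was at 2357, 2511, 2129, 2064 and 2462 CPM in the 5 WT livers. The *Mir483*Pat-KO livers ran from 1917 to 2407 CPM around a median of 2117. The groups overlapped, although 3 of 7 *Mir483*Pat-KO livers were below every WT liver.

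The passenger arm *miR-192-3p* and the seed-sharing *miR-215-5p* were both rare, at ranks 317 and 304. *miR-192-3p* was at 15.5, 18.5, 17.5, 11.8 and 33.2 CPM in WT, from 11 to 33 reads. The *Mir483*Pat-KO livers ran from 20.3 to 36.5 CPM around a median of 23.1, from 13 to 26 reads. The 7 *Mir483*Pat-KO livers were thus above 4 of the 5 WT livers and around the fifth, WT replicate 5. *miR-215-5p* was at 18.04, 17.5, 5.37, 53.4 and 26.2 CPM in WT, from 4 to 50 reads. The *Mir483*Pat-KO livers ran from 10.5 to 57.7 CPM around a median of 21.4, from 8 to 37 reads. Each genotype held 1 liver above 50 CPM, WT replicate 4 and *Mir483*Pat-KO replicate 2.

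**Figure D1:**
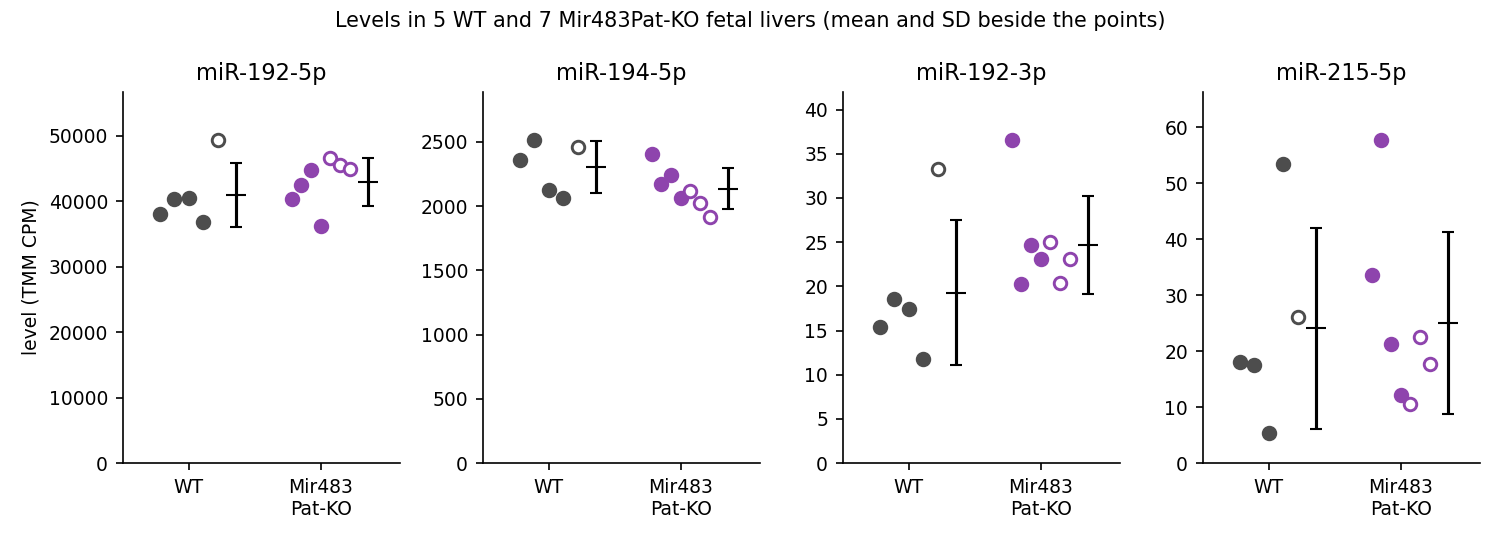
Level of each miR in TMM CPM (vertical axes, from 0) in 5 WT livers (grey) and 7 *Mir483*Pat-KO livers (purple); open points are fetuses of the upper animal-number range, and the bar beside each group is its mean ± SD. The genotypes overlap for all 4 miRs, and the single open WT point is the highest WT value of *miR-192-5p* and *miR-192-3p*.

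The order of the levels was *miR-192-5p*, *miR-194-5p* and then *miR-192-3p* with *miR-215-5p*. All are 21 or 22 bases long, so no length correction was made, and read numbers of different miRs also carry the ligation preferences of the library kit. *miR-192-5p* exceeded *miR-194-5p* by 4.25 on the log2 scale, or 19.1-fold, in 12 of 12 livers (two-sided exact sign-flip permutation test, p = 0.000488, the smallest that 4096 sign flips give). *miR-194-5p* exceeded *miR-192-3p* by 6.52 on the log2 scale, or 91.9-fold, in 12 of 12 livers (same exact permutation test, p = 0.000488). *miR-192-3p* and *miR-215-5p*, next to each other in this order, did not differ beyond their spread (mean log2 difference 0.047, exact sign-flip permutation p = 0.862, with *miR-192-3p* higher in 8 of 12 livers).

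Nearly all reads that could be traced to a single cluster came from chromosome 19. The products that only *Mir192* and *Mir194-2* encode, *miR-192-5p*, *miR-192-3p* and *miR-194-2-3p*, had 429206 reads over the 12 libraries. Those that only *Mir215* and *Mir194-1* encode, *miR-215-5p*, *miR-215-3p* and *miR-194-1-3p*, had 258, or 0.0601% of both. Of the latter, *miR-215-3p* gave 10 reads in all and *miR-194-1-3p* none.

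The 3p arms gave the only reads that tell the *Mir194* genes apart. *miR-194-2-3p* had 726 reads, at 85.0, 62.8, 65.8, 75.9 and 71.5 CPM in WT, and ran from 0 to 102.6 CPM around a median of 82.1 in *Mir483*Pat-KO. *miR-194-1-3p* was listed at 0 in all 12 libraries. The table holds no count of 1, so no upper limit is given for it. The 22572 reads of *miR-194-5p* could not be divided between the loci, since its sequence is the same at both. In *Mir483*Pat-KO replicate 4, *miR-194-2-3p* was listed at 0 where the other *Mir483*Pat-KO libraries predict 58.9 reads. The same prediction put 501 table entries of other miRs at 40 to 80 reads, of which 2 (0.399%) were at 0.

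*miR-215-5p* contributed little to the reads that carry the shared seed. It made up 0.0133% of the *miR-192-5p* and *miR-215-5p* reads in WT replicate 3 (95% exact Clopper-Pearson interval 0.00362 to 0.034%), the lowest share. The highest, in WT replicate 4, was 0.145% (exact interval 0.108 to 0.191%). These are the extremes of the 12 livers, and their intervals cover counting error only. There were 688 to 7534 reads of *miR-192-5p* for each read of *miR-215-5p*, with a median of 2103. Between its own arms, *Mir192* gave 1106 to 3127 reads of *miR-192-5p* for each read of *miR-192-3p*, with a median of 2022.

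The genotype comparison asks whether the loss of *Mir483* went with a change in these miRs. With edgeR (quasi-likelihood, Benjamini-Hochberg adjustment), 0 of the 4 miRs was called at an adjusted p under 0.05, against 8 of the 388 tested (2.06%), and 0 of 4 had an unadjusted p under 0.05, against 68 of 388. limma-voom called 0 of the 4 as well, and DESeq2 called neither *miR-192-5p* nor *miR-194-5p*, the members for which it gave an adjusted p. For none of the 4 did the genotypes separate without overlap, which 11 of 388 (2.84%) did. The median log2 fold change over all tested miRs was 0.0028.

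The abundant pair had the narrower intervals of the difference. *miR-192-5p* averaged 40999 ± 4891 CPM over the WT livers (SD, n = 5) and 42987 ± 3658 CPM over the *Mir483*Pat-KO livers (SD, n = 7), a log2 fold change of 0.068 (standard error 0.075, edgeR adjusted p = 0.734; exact permutation p = 0.434 on CPM). The approximate 95% interval of this difference runs from 0.933-fold to 1.18-fold. Single livers moved the difference of *miR-192-5p* in CPM, from 1987 with all livers to 930 without WT replicate 4, 1258 without WT replicate 1, 3125 without *Mir483*Pat-KO replicate 4 and 4059 without WT replicate 5 (exact permutation p = 0.0818). The log2 fold change was 0.028 to 0.14 with a liver left out, and 0.023 with the animal-number range as a factor. *miR-194-5p* averaged 2305 ± 199 CPM over the WT livers (SD, n = 5) and 2134 ± 159 CPM over the *Mir483*Pat-KO livers (SD, n = 7), a log2 fold change of -0.11 (standard error 0.071, edgeR adjusted p = 0.476; exact permutation p = 0.131 on CPM). Its interval runs from 0.830-fold to 1.03-fold. With library size alone as the scaling, the CPM difference of *miR-194-5p* grew from -170 to -278 (exact permutation p = 0.0429). The erythroid sum, given above, was higher in median in *Mir483*Pat-KO, and its part in the level of *miR-194-5p* was not tested.

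The rare pair was bounded less closely. *miR-192-3p* averaged 19.3 ± 8.21 CPM over the WT livers (SD, n = 5) and 24.7 ± 5.53 CPM over the *Mir483*Pat-KO livers (SD, n = 7), a log2 fold change of 0.35 (standard error 0.27, edgeR adjusted p = 0.556; exact permutation p = 0.202 on CPM) and an interval from 0.844-fold to 1.93-fold. Without WT replicate 5 the difference in CPM rose from 5.43 to 8.91 (exact permutation p = 0.00909), while the edgeR adjusted p stayed at 0.201 or above whichever fetus was left out. *miR-215-5p* averaged 24.1 ± 18.003 CPM over the WT livers (SD, n = 5) and 25.1 ± 16.3 CPM over the *Mir483*Pat-KO livers (SD, n = 7), a log2 fold change of 0.027 (standard error 0.46, edgeR adjusted p = 0.991; exact permutation p = 0.913 on CPM). Its interval, 0.498-fold to 2.08-fold, holds differences that were not detectable at this depth and spread. Its direction turned when WT replicate 1, 2 or 3 or *Mir483*Pat-KO replicate 1 or 2 was left out, and over the 12 fits that each left out 1 liver the log2 fold change lay between -0.33 and 0.52.

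Ratios within a library do not depend on scaling between libraries. For each read of *miR-194-5p* there were 16.1 to 20.02 reads of *miR-192-5p* in WT (median 17.8) and 16.8 to 23.4 in *Mir483*Pat-KO (median 19.97). The log2 ratio of *miR-194-5p* to *miR-192-5p* differed by -0.18 between *Mir483*Pat-KO and WT (two-sided exact permutation test, p = 0.0985, Benjamini-Hochberg adjusted over 4 ratios 0.253). The ratio of *miR-192-3p* to *miR-192-5p* differed by 0.35 (exact permutation p = 0.126, adjusted 0.253) and that of *miR-215-5p* to *miR-192-5p* by 0.11 (exact permutation p = 0.855). The ratio of *miR-194-2-3p* to *miR-192-5p* differed by -0.90 (exact permutation p = 0.766), and by 0.042 without *Mir483*Pat-KO replicate 4, the library in which *miR-194-2-3p* was listed at 0. The genotype ranges of all 4 ratios overlapped. In the lower animal-number range alone, with 4 livers of each genotype, the difference was -0.097 for *miR-194-5p* to *miR-192-5p* (exact permutation, adjusted p = 0.571), 0.63 for *miR-192-3p* (adjusted 0.114), 0.53 for *miR-215-5p* (adjusted 0.762) and -1.58 for *miR-194-2-3p* (adjusted 0.771).

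Beside the members stood 6 other tested entries of the liver-enriched list, which holds *miR-122*, *miR-148a*, *miR-101* and *miR-802*. Fitted levels were higher in *Mir483*Pat-KO for 2 and lower for 4, with a median log2 fold change of -0.025. edgeR called 0 of them, against 8 of all 388 tested (2.06%). *miR-122-5p* itself, the dominant miR of hepatocytes, averaged 139392 ± 13308 CPM over the WT livers (SD, n = 5) and 140351 ± 16687 CPM over the *Mir483*Pat-KO livers (SD, n = 7). Its log2 fold change was 0.0099 (standard error 0.079, edgeR adjusted p = 0.976).

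The spread between livers was set against counting error and against miRs of like level. Within genotype, the coefficient of variation of *miR-192-5p* was 9.95%, where counting alone gives 0.536%. All 4 other miRs within 2-fold of its level varied less, with a median of 6.72%. *miR-194-5p* varied by 8.001% against a counting error of 2.34%, near the median of 9.47% of its 35 neighbours in level.

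Of the rare pair, *miR-192-3p* varied little beyond what its few reads give, and *miR-215-5p* varied far more. *miR-192-3p* had a coefficient of variation of 30.0% against a counting error of 23.2%, and its 127 neighbours had a median of 30.6%. *miR-215-5p* had 68.8% against 22.1%, and 124 of its 129 neighbours in level varied less, with a median of 28.3%. At nearly the same read number, its livers therefore ranged more widely than those of the passenger arm *miR-192-3p*.

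**Figure D2:**
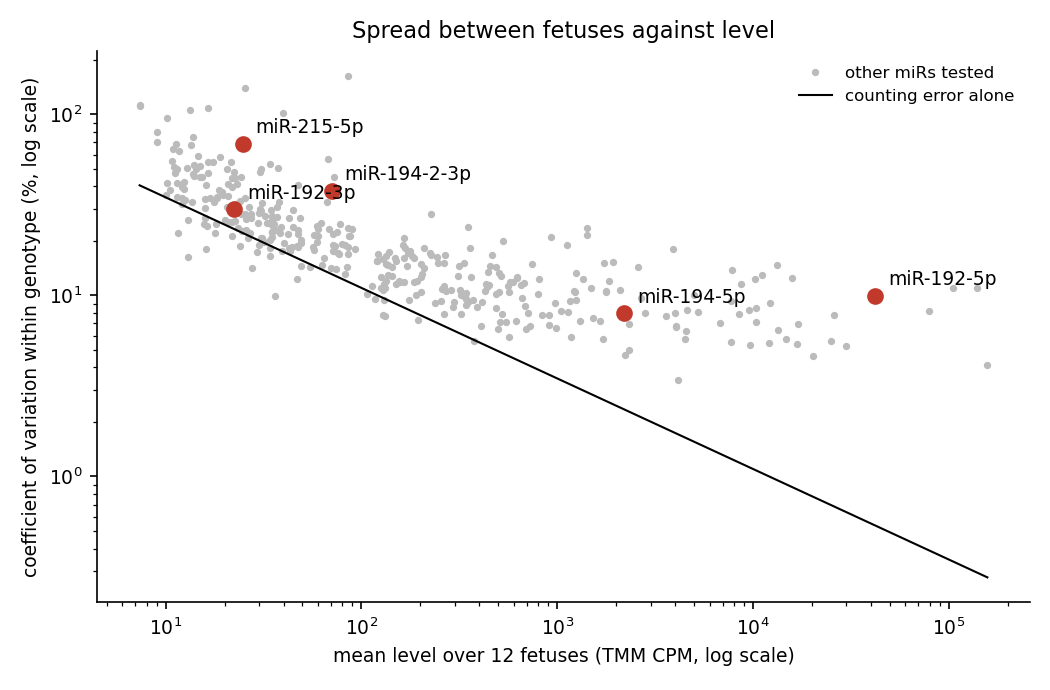
Coefficient of variation between fetuses within genotype (%, log axis) against mean level (TMM CPM, log axis) for the 388 tested miRs, with the line that counting error alone gives. *miR-192-3p* lies near the line, *miR-215-5p* at a like level lies above it at 68.8%, and *miR-192-5p* lies at 9.95% where the line is at 0.536%.

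Products of the clusters were then compared across fetuses, as log2 CPM with each genotype's mean subtracted. The members were also compared with *miR-122-5p* and the erythroid sum. Since reads of *miR-194-5p* name no locus, its pair with *miR-192-5p* could not be placed within a single cluster. In all, 18 relations were tested by 100000 permutations of fetuses within genotype. Of these, 3 had an unadjusted p under 0.05 and 0 an adjusted p under 0.05, the lowest being 0.189. *miR-192-5p* and *miR-194-5p* did not rise and fall together detectably over the 12 livers, with Pearson r = 0.18 (permutation p = 0.622, adjusted 0.740) and Spearman rho = 0.070 (permutation p = 0.848, adjusted 0.889). Without the 2 livers farthest from the median of *miR-192-5p*, r was -0.26, and it was 0.40 in the 8 livers of the lower animal-number range and -0.21 in the 7 *Mir483*Pat-KO livers. Leaving out WT replicate 5, the liver highest in *miR-192-5p*, turned r to -0.043.

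The arms of *Mir192* and the 3p arm of *Mir194-2* gave relations that rested on 1 or 2 livers. *miR-192-5p* with *miR-192-3p* had r = 0.51 (permutation p = 0.165, adjusted 0.473; rho = 0.43, permutation p = 0.177, adjusted 0.407), which became -0.11 without the 2 livers farthest from the median. *miR-192-5p* with *miR-194-2-3p* had r = 0.56 (permutation p = 0.0945, adjusted 0.425; rho = 0.39, permutation p = 0.170, adjusted 0.407), and r = -0.14 without *Mir483*Pat-KO replicate 4, the library with no *miR-194-2-3p* read. These relations therefore do not hold without those livers.

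The closest relation between members crossed the hairpins. *miR-192-3p* with *miR-194-5p* had r = 0.67 (permutation p = 0.0223, adjusted over 18 relations 0.201) and rho = 0.64 (permutation p = 0.0438, adjusted 0.230). r stayed positive in the 7 *Mir483*Pat-KO livers (0.72), in the lower animal-number range (0.71) and without the 2 farthest livers (0.32). Without genotype centring it was 0.30 (adjusted permutation p = 0.845). *miR-192-3p* had 11 to 33 reads per library, and a coefficient of variation of 30.0% where counting alone gives 23.2%. Its few reads limit what any of its relations can show, here and below. *miR-215-5p* was not detectably related to any of the others. Its r was -0.063 to *miR-192-5p* (permutation p = 0.858, and rho = -0.084 with permutation p = 0.806). To *miR-194-5p* it was 0.19 (permutation p = 0.594, and rho = 0.20 with permutation p = 0.580). To *miR-194-2-3p* it was 0.30 (permutation p = 0.319) and to *miR-192-3p* -0.093 (permutation p = 0.810). Its r to *miR-192-5p* was -0.77 without the 2 livers farthest from the median of *miR-192-5p*, so that relation too depended on which livers were counted.

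**Figure D3:**
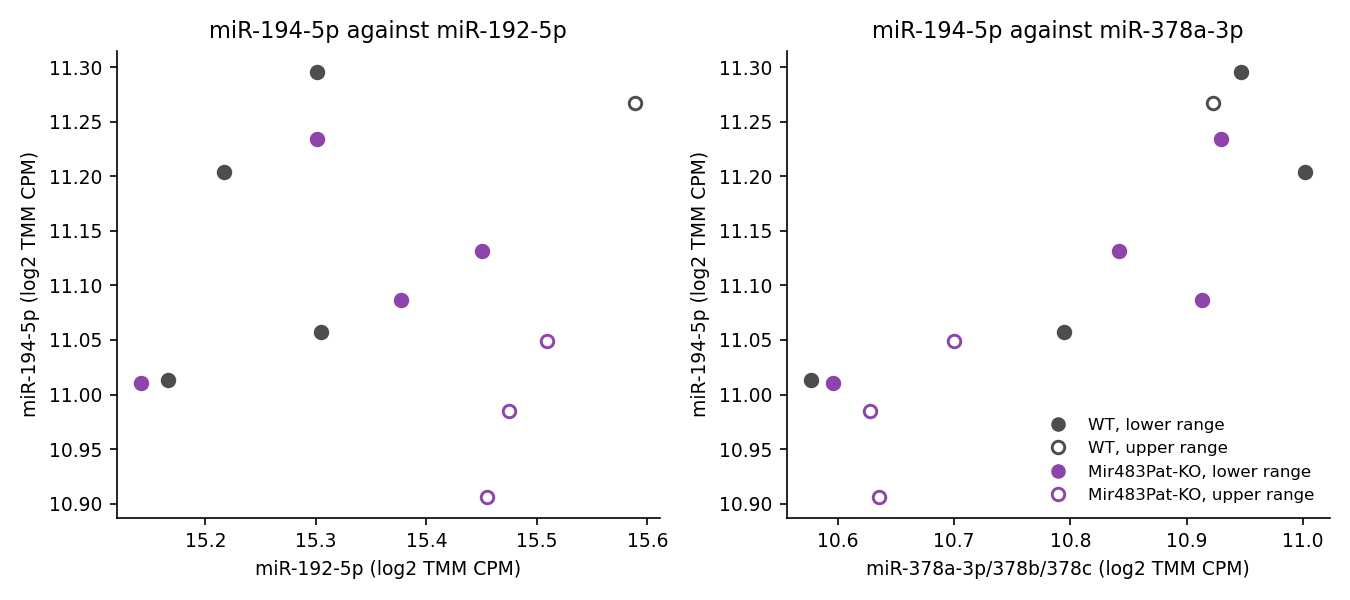
*miR-194-5p* against *miR-192-5p* (left) and against the *miR-378a-3p* entry (right), both axes in log2 TMM CPM, 1 point per fetus (grey WT, purple *Mir483*Pat-KO, open points the upper animal-number range). The points scatter on the left, with r = 0.18 after genotype centring, and rise together on the right, with r = 0.85.

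*miR-194-5p* and *miR-192-3p* were inversely related to the erythroid markers, without passing the adjusted threshold. *miR-194-5p* with the sum of the 4 erythroid miRs had r = -0.66 (permutation p = 0.0343, adjusted 0.206) and rho = -0.66 (permutation p = 0.0387, adjusted 0.230), with r = -0.50 without the 2 farthest livers, -0.76 in *Mir483*Pat-KO alone and -0.53 in the lower animal-number range. *miR-192-3p* with the same sum had r = -0.71 (permutation p = 0.0105, adjusted 0.189) and rho = -0.62 (permutation p = 0.0512, adjusted 0.230), with r = -0.51 without the 2 farthest livers. Without genotype centring r was -0.26 for *miR-192-3p* (adjusted permutation p = 0.845) and -0.74 for *miR-194-5p* (adjusted 0.115). With library size alone as the scaling, both passed the adjusted threshold, at r = -0.84 and -0.70, and so did *miR-192-3p* with *miR-194-5p* at r = 0.78. Without *Mir483*Pat-KO replicate 2, *miR-192-3p* with the erythroid sum passed as well, at r = -0.82 (adjusted permutation p = 0.0257).

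*miR-192-5p* did not share that pattern detectably, with r = -0.16 to the erythroid sum (permutation p = 0.657; rho = -0.049, permutation p = 0.889). Its r to *miR-122-5p* was -0.46 (permutation p = 0.144, adjusted 0.473; rho = -0.60, permutation p = 0.0464, adjusted 0.230), and 0.057 within the lower animal-number range. The r to *miR-122-5p* was -0.22 for *miR-192-3p* (permutation p = 0.471; rho = -0.45, permutation p = 0.165). It was positive for *miR-194-5p*, at 0.30 (permutation p = 0.357; rho = 0.10, permutation p = 0.759), with 0.71 without the 2 farthest livers and 0.66 in *Mir483*Pat-KO alone. It was positive for *miR-215-5p* too, at 0.42 (permutation p = 0.184, adjusted 0.473; rho = 0.43, permutation p = 0.181), with 0.21 without the 2 farthest livers. In *Mir483*Pat-KO alone it was 0.82 (exact permutation p = 0.0270, adjusted 0.321).

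The miRs most like each member were ranked by Pearson r over the 12 livers among the abundant miRs (mean log2 CPM of at least 6), as a description without a test. All values share the same libraries and scaling. For *miR-192-5p* the 5 most alike of 223 were *miR-758-3p* (r = 0.75), *miR-148b-3p* (0.74), *miR-191-5p* (0.73), *miR-409-5p* (0.72) and *miR-99b-5p* (0.70), and *miR-194-5p* stood 78th. For *miR-194-5p* they were the joint entry of *miR-378a-3p*, *miR-378b* and *miR-378c* (r = 0.85), *let-7g-5p* (0.83), the joint entry of *miR-101a-3p*, *miR-101b-3p* and *miR-101c* (0.75), *miR-320-3p* (0.73) and the joint entry of *miR-27a-3p* and *miR-27b-3p* (0.72). *miR-192-5p* stood 80th for it, so neither of these abundant miRs was among the closest of the other.

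For *miR-192-3p* the 5 most alike of 224 were *miR-148b-3p* (r = 0.86), *miR-574-5p* (0.78), *miR-496a-3p* (0.77), the joint entry of *miR-27a-3p* and *miR-27b-3p* (0.76) and *miR-99b-5p* (0.73). *miR-194-5p* stood 9th and *miR-192-5p*, the other arm of its own hairpin, 21st. For *miR-215-5p* they were *miR-30c-1-3p* (r = 0.84), *miR-574-3p* (0.76), *miR-338-3p* (0.74), *miR-181a-1-3p* (0.72) and the joint entry of *miR-1843a-5p* and *miR-1843b-5p* (0.65). *miR-194-5p* stood 62nd and *miR-192-5p* 130th for it. *miR-192-5p* and *miR-192-3p* shared *miR-148b-3p* and *miR-99b-5p* among their closest miRs.

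**Figure D4:**
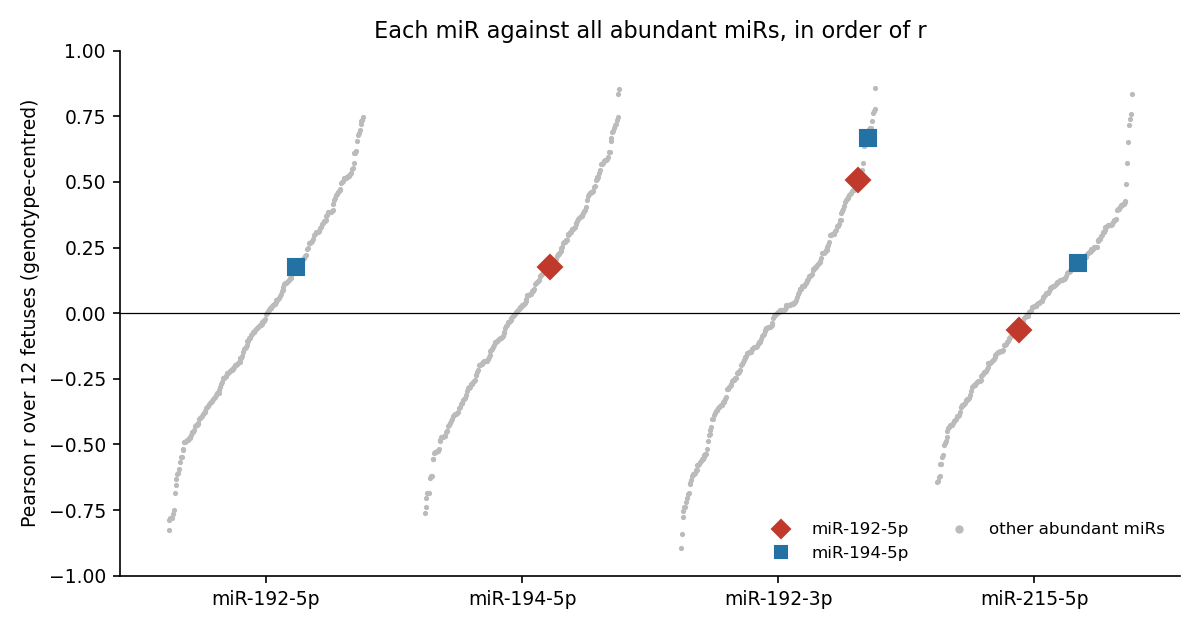
Pearson r of each of the 4 miRs with every abundant miR over 12 fetuses (vertical axis, genotype-centred), in rising order, with *miR-192-5p* and *miR-194-5p* marked. *miR-194-5p* stands 78th of 223 for *miR-192-5p* and 9th of 224 for *miR-192-3p*.

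In TMM CPM, the levels of *miR-192-5p* in the lower and upper animal-number ranges did not overlap, a comparison added after the values were seen. It was between 36157 and 44758 CPM in the 8 livers of the lower range, at a mean of 39942 ± 2890 CPM (SD, n = 8). In the 4 livers of the upper range it was between 44916 and 49285 CPM, at a mean of 46591 ± 1930 CPM (SD, n = 4). It follows that these CPM ranges cannot overlap within a genotype, which adds no support. In *Mir483*Pat-KO, 4 livers of the lower range were at 36157 to 44758 CPM and 3 of the upper range at 44916 to 46624 CPM. In WT, 4 livers of the lower range were at 36771 to 40479 CPM and the single liver of the upper range at 49285 CPM. The separation depended on the TMM factors. As a percentage of each library's counts, the ranges overlapped, at 3.59% to 4.41% in the lower and 4.37% to 5.25% in the upper range. The livers that overlapped were *Mir483*Pat-KO replicate 3 (lower range, 4.41%) and replicate 6 (upper range, 4.37%).

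With genotype and range in the edgeR fit, the log2 difference of *miR-192-5p*, upper over lower range, was 0.22 (standard error 0.059, unadjusted p = 0.00215, Benjamini-Hochberg adjusted p = 0.121), the 5th lowest p of 388. By this edgeR test 0 of 388 miRs (0%) was called, and 41 had an unadjusted p under 0.05, so the difference in *miR-192-5p* did not pass the threshold. Of the 4 miRs, *miR-192-5p* alone had ranges that did not overlap in TMM CPM, which held for 7 of all 388 (1.8%). *miR-194-5p* differed by -0.052 (standard error 0.075, edgeR adjusted p = 0.865), at 2243 ± 167 CPM (SD, n = 8) in the lower and 2130 ± 236 CPM (SD, n = 4) in the upper range. For each read of *miR-194-5p* there were 16.1 to 19.97 reads of *miR-192-5p* in the lower range and 20.02 to 23.4 in the upper range, so the ranges nearly met.

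Marker miRs of the cell types were set beside this difference. *miR-122-5p* was at 130722 to 161197 CPM in the lower and 126837 CPM in the upper range in WT, and at 138755 to 169818 and 118609 to 135848 CPM in *Mir483*Pat-KO, a direction opposite to that of *miR-192-5p*. The hepatocyte sum was 135080 to 173899 CPM in the lower and 122889 to 140084 CPM in the upper range, and the erythroid sum 24370 to 32355 and 23848 to 37810 CPM. Fitted levels were higher in the upper range for 1 of the 3 hepatocyte and 4 of the 4 erythroid miRs. On the other lists this held for 0 of 5 biliary epithelial, 0 of 2 endothelial and 0 of 3 white blood cell miRs. It held for 2 of 5 stellate or mesenchymal and 0 of 1 pancreas or muscle miRs. The biliary sum was 1307 to 1996 CPM in the lower and 1179 to 1324 CPM in the upper range. The part of these miRs in the difference of *miR-192-5p* was not tested. The upper range holds a single WT liver, so the genotypes could not be compared within it.

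**Figure D5:**
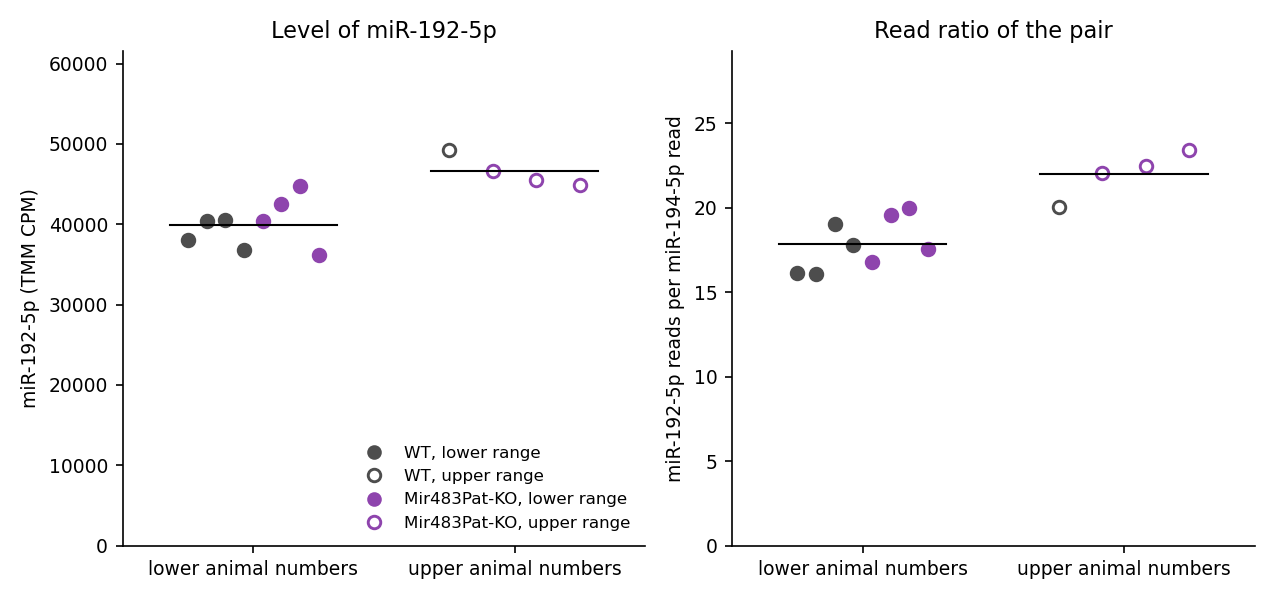
Level of *miR-192-5p* in TMM CPM (left) and reads of *miR-192-5p* per read of *miR-194-5p* (right), both from 0, in the 8 fetuses of the lower and the 4 of the upper animal-number range (grey WT, purple *Mir483*Pat-KO; lines are means). All 4 upper-range livers lie above all 8 lower-range livers for *miR-192-5p*, and on the right the ranges nearly meet, at 19.97 and 20.02.

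The remaining marker lists were read in the same way. Of the 3 tested white blood cell miRs, 3 had higher fitted levels in *Mir483*Pat-KO (summed 11343 to 14595 CPM in the WT livers and 13119 to 14813 CPM in the *Mir483*Pat-KO livers). Of the 5 stellate or mesenchymal miRs 1 was higher, of the 2 endothelial miRs 0, and of the 5 biliary epithelial miRs 4. The biliary sum went the other way in median. It was 1190 to 1996 CPM (median 1576) in the WT livers and 1179 to 1659 CPM (median 1324) in the *Mir483*Pat-KO livers. *miR-429-3p*, the most abundant of the 5, was the 1 with a lower fitted level (log2 fold change -0.29, edgeR adjusted p = 0.253). edgeR called 0 of the miRs on these lists at an adjusted p under 0.05, against 8 of all 388 tested (2.06%). The check for pancreas and muscle gave summed levels of 149 to 219 CPM over all 12 livers, with 1 of its 4 miRs, *miR-375-3p*, abundant enough to test. Their part in the levels of *miR-192-5p* and *miR-194-5p* was not tested.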

How the data were processed

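From E18.5 female livers (5 WT, 7 *Mir483*Pat-KO), the authors prepared 1 TruSeq Small RNA library per fetus. NovaSeq6000 reads were assigned to miRs with miRge 3.0. The deposited values are counts of reads per mature miR, whole numbers without normalization or pooling. The miR reference and adapter trimming are not given in the sources used here. The lowest count above 0 is 2. Groups and replicate numbers came from the labels. The fetuses were littermates, but which of them shared a litter is not given. The tests treat the fetuses as independent and could not take litter into account. Their p-values set a difference or a relation against the spread between these fetuses.

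From the counts, miRs were filtered by filterByExpr (minimum count 10, minimum total 15), scaled by TMM and tested across all 388 miRs with edgeR 4.0.16 (R 4.3.3; quasi-likelihood F-test, legacy dispersion, genotype alone in the design, Benjamini-Hochberg adjustment). Intervals of a difference are the standard error times the t quantile for 10 residual degrees of freedom, and are approximate. CPM and ratios (0.5 added to each count) were compared by exact permutation over 792 splits, neighbouring levels by sign flips, and log2 CPM (prior count 2) between fetuses by 100000 permutations within genotype. Alternatives used DESeq2 1.42.0 and limma 3.58.1 (voom), other scalings, filters and covariates, and each fetus left out. GENCODE (GRCm38) gave the positions. The code was checked on simulated counts. Figures used matplotlib 3.10.9.

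The 4 members, the other arms of their hairpins, and the 5 abundant miRs most like each member were named. The members and marker lists were chosen with earlier results of these data known.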

Additional observations from a re-analysis of the deposited data

Results flagged for a closer look

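In each genotype, a liver was looked at again where its gap to the nearest other value took up more of the group's range than Dixon's limit allows. Of 18 groups examined 2 passed, and chance gives about 1 in 20. *miR-192-3p* in *Mir483*Pat-KO replicate 1 was at 36.5 CPM, with the next liver at 24.99 CPM, a gap of 0.709 of the range where the limit for 7 livers is 0.568. The log2 ratio of *miR-194-2-3p* to *miR-192-5p* in *Mir483*Pat-KO replicate 4 was -15.7, with the next liver at -9.67, a gap of 0.876 of the range, because *miR-194-2-3p* was listed at 0 there. WT replicate 5 came close for *miR-192-5p*, with a gap of 0.704 of the range where the limit for 5 livers is 0.710.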

How the results depend on the processing

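Under all 25 alternative fits of the genotype difference, 0 of the 4 members was called. The direction of the log2 fold change turned in some of these fits. For *miR-192-5p* it went to -0.0049 with library size alone and -0.15 with the library index as a covariate. With that covariate it went to 0.11 for *miR-194-5p* and 0.26 for *miR-194-2-3p*. Index order and genotype cannot be told apart, so the fit with that covariate cannot separate them. For *miR-215-5p* the log2 fold change went to -0.039 with library size alone and -0.0020 with TMM computed without *miR-483*. It was -0.0041 with the 1 CPM filter and -0.013 with edgeR 4's dispersion. With library size alone the CPM differences were -143 for *miR-192-5p*, -278 for *miR-194-5p* and -0.13 for *miR-215-5p*. With each fetus left out, the log2 fold change was -0.33 to 0.52 for *miR-215-5p* and -0.18 to 0.16 for *miR-194-2-3p*. The CPM difference was -4.43 to 8.34 for *miR-215-5p* and 3.46 to 8.91 for *miR-192-3p*. The log2 ratio difference was -0.31 to 0.51 for *miR-215-5p* and -1.11 to 0.042 for *miR-194-2-3p* against *miR-192-5p*, and the level difference of *miR-192-3p* over *miR-215-5p* was -0.072 to 0.23. The number of all miRs called was 8, and 14 with library size alone, 26 by DESeq2, 3 with the library index, 5 with the animal-number range as a factor and 3 to 12 with a fetus left out. DESeq2 gave no adjusted p for *miR-192-3p*, *miR-215-5p* or *miR-194-2-3p*, and the filter of 10 counts in every library left *miR-215-5p* and *miR-194-2-3p* untested. The cause of these shifts was not tested.

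The replicate numbers did not pair the fetuses: same-numbered libraries correlated between -0.24 and 0.23 in their deviations, and 1 of 5 WT libraries was closest to its own number. With the replicate block, log2 fold changes were 0.040 for *miR-192-5p*, 0.47 for *miR-192-3p*, -0.065 for *miR-194-5p* and 0.21 for *miR-215-5p*, and 3 miRs were called.

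Among correlations, r of *miR-192-5p* with *miR-194-5p* was -0.21 in *Mir483*Pat-KO alone and -0.043 to 0.34 with a fetus left out. In *Mir483*Pat-KO alone the direction also changed for *miR-192-5p* with *miR-192-3p* (-0.23) and the erythroid sum (0.42), and for *miR-192-3p* with *miR-215-5p* (0.022) and *miR-122-5p* (0.083). In the lower animal-number range it changed for *miR-192-5p* with *miR-122-5p* (0.057) and *miR-215-5p* with the erythroid sum (0.023), and without centring for *miR-192-3p* with *miR-194-2-3p* (-0.043) and *miR-192-5p* with the erythroid sum (0.018). With a fetus left out, r was -0.019 to 0.61 for *miR-194-5p* with *miR-215-5p*, -0.29 to 0.18 for *miR-192-5p* with *miR-215-5p*, -0.32 to 0.26 for *miR-192-3p* with *miR-215-5p*, -0.33 to 0.14 for *miR-192-5p* with the erythroid sum, -0.036 to 0.11 for *miR-192-3p* with *miR-194-2-3p* and -0.14 to 0.76 for *miR-192-5p* with *miR-194-2-3p*. Counts of 4 to 50 reads per library limit what can be seen of *miR-215-5p*, and counts of 11 to 33 reads what can be seen of *miR-192-3p*.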
